A study of Rattus norvegicus with 16 samples.

Results

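The genes of respiratory complex I were taken as every gene of the deposited count table whose symbol begins with Nduf, which gave 42 of 17147 genes. They comprise 33 genes of structural subunits, 6 genes of assembly factors (the Ndufaf genes), Ndufa4 and Ndufa4l2, which bear the family name but are not complex I subunits, and Ndufa10l1, a close copy of the subunit gene Ndufa10. The question put to them was how the subunits and the factors that build them moved over time in torn and denervated muscle.

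Complex I oxidises NADH made in the mitochondrial matrix, passes the electrons along a chain of iron-sulfur clusters to ubiquinone and uses the energy to pump protons across the inner membrane. It is L-shaped. The matrix arm holds the core subunits that carry flavin and iron-sulfur clusters, the membrane arm holds the proton pumps, and accessory subunits surround both. Assembly factors join the modules and modify subunits, then leave, so they are absent from the finished enzyme. Muscle is rich in the complex, most of all its oxidative fibres.

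Messenger RNA was measured in the supraspinatus, a muscle of the rotator cuff, of Sprague Dawley rats, with 4 libraries in each of 4 groups. The 0-day group was unoperated. The 10-day, 30-day and 60-day groups were taken that long after surgery on both shoulders, in which the supraspinatus was torn through its full thickness and the suprascapular nerve was removed (neurectomy), so that the tear and the denervation cannot be told apart. The labels do not say which libraries share a rat, and p-values measure only the spread between these samples.

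Library totals ran from 17.2 to 39.9 M fragments (M, mega), with the 60-day libraries lowest (17.2 to 22.4 M). Levels are CPM (fragments that fall on a gene out of each 1 M) after TMM scaling, a scaling that sets the bulk of genes equal between libraries. Log2 fold changes, given ± standard error (SE), and adjusted p-values are from edgeR's quasi-likelihood test over the 11658 genes that passed the filter on low counts, all 42 Nduf genes included, and the threshold for a call was an adjusted p under 0.05. Over all genes tested the log2 fold change had a median of 0.061, 0.046 and 0.040 at 10, 30 and 60 days against 0 days. With library totals as the only scaling it was 0.72, 0.54 and 0.45, so every change below is relative to the bulk of genes. The tissue label was met by the summed level of 10 muscle fibre markers, which was 246928 CPM ± 11064 (SD, n = 4) in unoperated muscle and 65981 ± 3080, 130963 ± 19349 and 148784 ± 9831 in the 10-day, 30-day and 60-day groups.

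At 10 days the transcripts of all 33 structural subunits fell relative to the bulk of genes, while with library totals 27 were called lower and Ndufs4 higher. Among all genes tested, 29.4% were called lower in this comparison. The median log2 fold change of the subunits was -1.25, from -2.23 for Ndufs7 to -0.42 for Ndufs4, against 0.061 for all genes tested. In each of the 33 genes the 4 libraries of 10 days lay below the 4 of 0 days, a separation seen downward in 27.8% of all genes tested. Summed, the 33 genes took 0.908% ± 0.0385 (SD, n = 4) of all fragments in unoperated muscle. In the 10-day, 30-day and 60-day groups they took 0.549% ± 0.0315, 0.970% ± 0.102 and 1.14% ± 0.152.

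**Figure D1:**
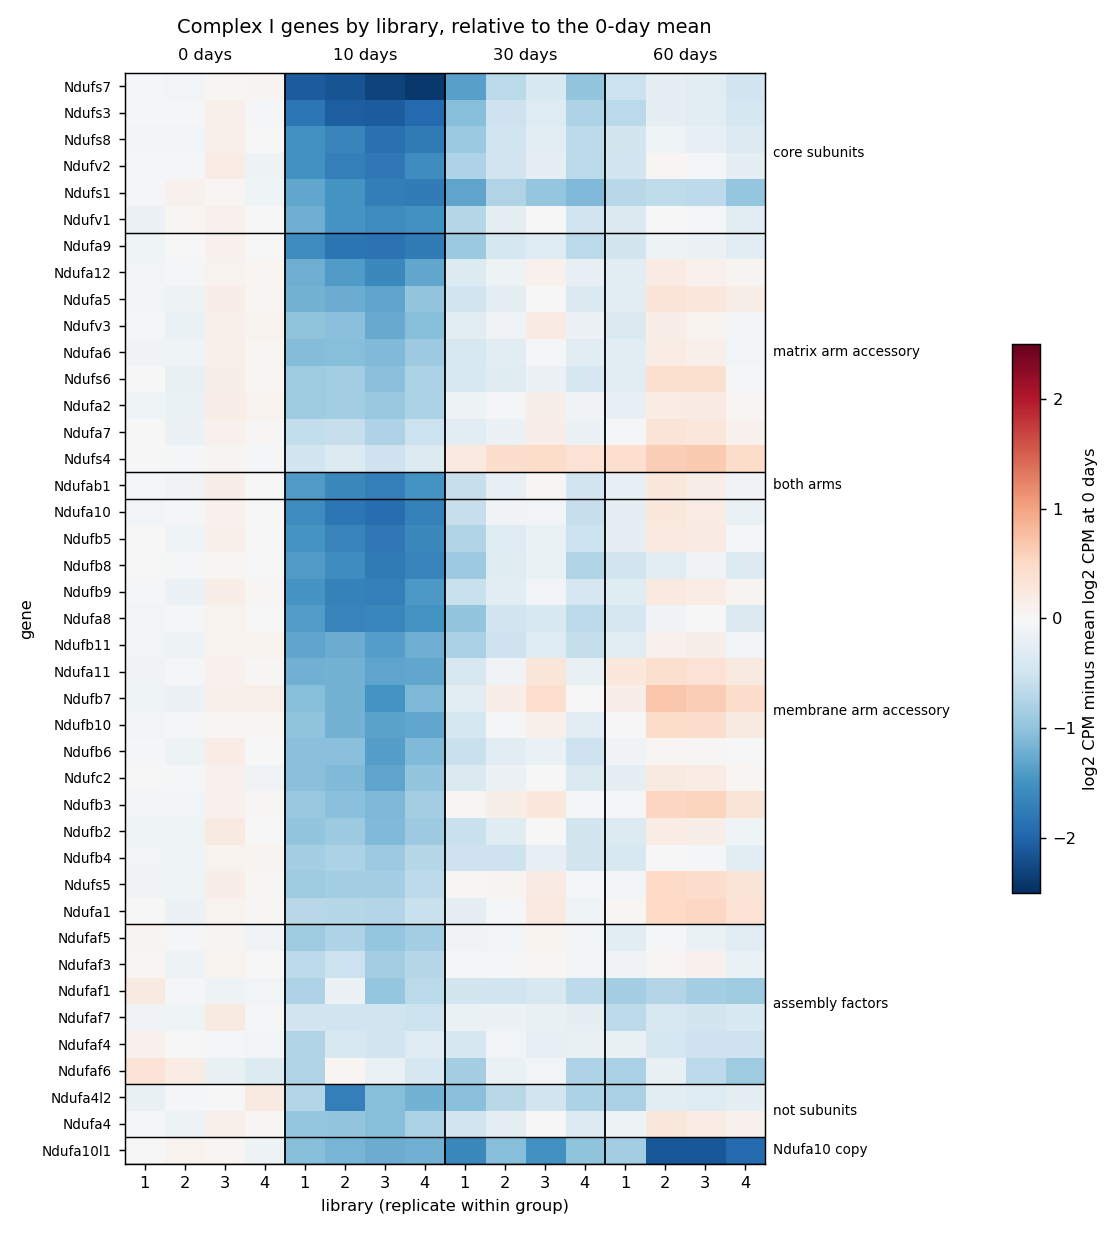
Each cell is the log2 CPM of a gene in 1 library minus that gene's mean log2 CPM at 0 days. Columns are the 16 libraries by group, and rows are 41 of the Nduf genes by class, sorted within a class by the change at 10 days. The subunits are lowest at 10 days, with Ndufs7 the lowest (log2 fold change -2.23), and return toward or above 0 by 60 days, while several assembly factors stay low at 60 days.

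The fibre markers fell with the subunits: 9 of the 10 were called lower at 10 days, and myoglobin (Mb) was called higher. Markers of other cells did not move together. The summed level of 9 macrophage markers had ranges of 35.0 to 50.9 CPM at 0 days and 112 to 151 CPM at 10 days, and 8 of the 9 were called higher. Of 8 fibroblast markers Col1a2 was at 0 in every library, as was no other marker, and the sum of the others ran from 456 to 976 CPM at 0 days and from 931 to 2868 CPM at 10 days, with 6 of 7 tested called higher. The sum of 5 endothelial markers was 241 CPM ± 17.9 (SD, n = 4) at 0 days and 152 ± 28.5 at 10 days, with 5 of 5 called lower. That of 5 Schwann cell markers was 81.1 ± 18.4 and 43.7 ± 10.6, with 2 called lower, and none of 6 fat cell markers was called. In bulk muscle, fewer fibres and less of these RNAs per fibre cannot be told apart, and the part of these shifts in the subunit changes was not tested.

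The 7 core subunits encoded in the nucleus, all in the matrix arm, fell with a median of -1.64 at 10 days. Ndufs7, which carries the last iron-sulfur cluster before ubiquinone, was measured at 486, 476, 514 and 522 CPM at 0 days and at 119, 112, 101 and 93.3 CPM at 10 days. At 30 days its libraries read 195, 315, 383 and 251 CPM and at 60 days 344, 423, 412 and 359 CPM. The 10-day libraries were far below all others, and the 4 libraries of 30 and of 60 days stayed under every unoperated one. The change at 10 days was -2.23 ± 0.16, a level 4.70 times lower (adjusted p 5.98e-09). Ndufs3, a core subunit beside the ubiquinone site, fell by 1.97 ± 0.14 (adjusted p 4.54e-09), and Ndufs8, which carries a pair of iron-sulfur clusters, fell by 1.70 ± 0.12 (adjusted p 5.82e-09). Ndufv1, which binds NADH and flavin, fell least of the 7, by 1.44 ± 0.13 (adjusted p 1.07e-07). Ndufv2, the partner of Ndufv1, fell by 1.64 ± 0.13.

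Ndufs1, the large core subunit of the NADH-oxidising module, had the lowest log2 fold change of the subunits at 30 and at 60 days. Its libraries read 960, 1068, 1032 and 924 CPM at 0 days, 403, 353, 298 and 298 CPM at 10 days, 401, 589.5, 509 and 461 CPM at 30 days and 613, 638, 631 and 508 CPM at 60 days. All 12 libraries of operated muscle lay below the 4 unoperated ones, and the 30-day libraries overlapped with those of 10 days. The log2 fold changes against 0 days were -1.56 ± 0.13, -1.02 ± 0.12 (adjusted p 2.58e-06) and -0.74 ± 0.12 (adjusted p 9.27e-05).

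The accessory subunits spread more widely. In the matrix arm 9 accessory genes had a median of -1.04 at 10 days, from Ndufa9, a subunit at the junction with the membrane arm (-1.74 ± 0.12, adjusted p 3.70e-09), to Ndufs4 (-0.42 ± 0.07, adjusted p 0.000108). The 16 accessory genes of the membrane arm had a median of -1.21, from Ndufa10 (-1.74 ± 0.14) to Ndufa1 (-0.68 ± 0.11, adjusted p 4.53e-05). Ndufab1, the mitochondrial acyl carrier protein, which sits in both arms, fell by 1.56 ± 0.13. Over the 33 genes the log2 fold changes had an SD of 0.41.

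**Figure D2:**
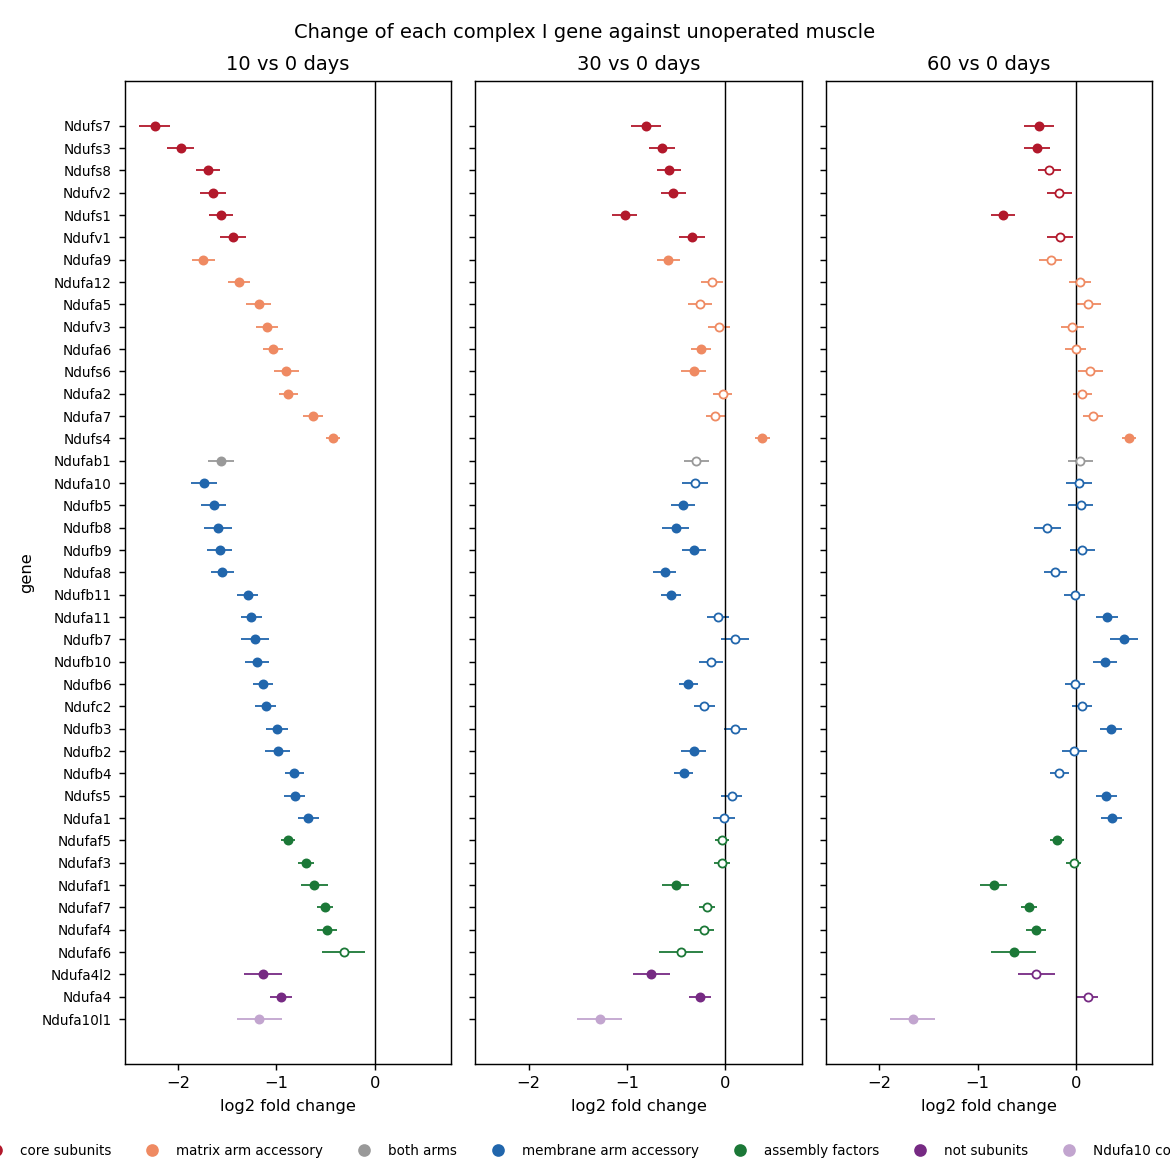
Points are log2 fold changes of 41 Nduf genes against 0 days at 10, 30 and 60 days, bars are ± 1 SE, colours are the classes, and filled points are genes called at an adjusted p under 0.05. At 10 days every subunit lies left of 0, and the core genes have the lowest median of the classes of subunits (-1.64). At 60 days the subunits straddle 0 (median 0.027) and 5 of 6 assembly factors are called lower.

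The core genes fell relative to the accessory ones when both were read in the same library, a difference that the scaling of libraries moves only through the small prior count of the log scale. The mean log2 CPM of the 7 core genes minus that of the 9 matrix arm accessory genes was 1.43 ± 0.07 (SD, n = 4) in unoperated muscle and 0.73 ± 0.12, 0.93 ± 0.13 and 1.01 ± 0.07 in the 10-day, 30-day and 60-day groups. The lowest unoperated library, at 1.36, was above the highest library of operated muscle, at 1.11. Against the membrane arm the difference was 1.13 ± 0.06, 0.63 ± 0.10, 0.74 ± 0.08 and 0.70 ± 0.07. These differences are not per length, so only their change between groups can be read.

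Promoter sequence was described next, and its part in the subunit changes was not tested. RefSeq promoters of the rat assembly GRCr8 (250 bases before the transcription start and 50 after it) were found for 37 of the 42 genes, 30 of them subunits. Those without one included Ndufa10l1, Ndufa8, Ndufaf6 and Ndufb9. Letters were searched on both strands. AAGATGG, the core of the site of YY1, a zinc finger factor, was in 7 of 30 subunit promoters (23.3%) and in 7.01% of all 33469 promoters. These were Ndufa2, Ndufa6, Ndufa9, Ndufb8, Ndufs4, Ndufs6 and Ndufs7. All 7 matches lay after the transcription start, and the letters hold an ATG, so a start of translation can share them. The subunit with the largest fall and the one with the smallest both held them. The stretches below run 5′ to 3′ on the strand of the gene, with the letters of the core in capitals.
Ndufs7 (chr7:10110476-10110505, minus strand): aggccgaggccAAGATGGcggcgctggcgg
Ndufs4 (chr2:47794892-47794921, minus strand): ttgcccacaggAAGATGGcggcggtctcaa
Ndufa9 (chr4:161374142-161374171, minus strand): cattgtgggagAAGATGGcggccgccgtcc
Ndufb8 (chr1:253362897-253362926, minus strand): cggagaaggtgAAGATGGcggcgtcccggg

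Further motifs were counted in the same windows. AAGGTCA, the half-site of the estrogen-related receptors, was in 4 of 30 subunit promoters (13.3%, all promoters 4.61%), and CCGGAAG, an ETS core bound by GABP, in 6 of 30 (20%, all promoters 8.75%). The GC box GGGCGG was in 13 of 30 (43.3%, all promoters 33.1%) and CCAAT in 10 of 30 (33.3%, all promoters 37.5%). In the bases before the start alone, AAGGTCA was in 2 of 30 (6.67%, all promoters 3.99%) and AAGATGG in 0 of 30 (all promoters 4.62%). There CCGGAAG was in 6 of 30 (20%, all promoters 7.27%) and GGGCGG in 10 of 30 (33.3%, all promoters 30.5%). GCATGCG, the core of the site of NRF1, a factor known for genes of mitochondrial proteins, was in 2 of 30 subunit promoters (6.67%, all promoters 3.33%) and in 2 of 5 assembly factor promoters. Of the same 5 promoters, GGGCGG was in 3, CCGGAAG and CCAAT in 1 each, and AAGATGG and AAGGTCA in 0. In the stretches below GCATGCG is in capitals, on either strand, and overlapping copies run together.
Ndufaf5 (chr3:147961587-147961616, plus strand): agtccctttggCGCATGCGcacaatagaaa
Ndufaf4 (chr5:43401627-43401656, plus strand): gcagtagtccgCGCATGCGcccctgtggaa
Ndufa11 (chr9:1637507-1637536, plus strand): cctgcgctgtgCGCATGCGCATGCGcacag
A match describes these letters only, and no match says nothing of a factor.

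At 30 days 18 of 33 subunits were called lower than in unoperated muscle and Ndufs4 was called higher (all genes tested: 30.9% lower, 33.7% higher). All 9 macrophage markers and the 7 fibroblast markers tested were called higher at that time, with sums of 164 CPM ± 21.6 and 1907 ± 431 (SD, n = 4) beside 44.8 ± 6.94 and 704 ± 228 at 0 days. Of the 10 fibre markers 8 were called lower, and Mb was called higher (1.01). Of 5 endothelial markers 2 were called lower, of 5 Schwann cell markers 2 were called higher, and none of 6 fat cell markers was called. The part of these shifts in the 30-day values was not tested. The subunit median was -0.32 and turned to 0.17 with library totals, under which 2 subunits were called lower and 13 higher. All 7 core genes were among those called lower, with a median of -0.57. Ndufv1 had the smallest change of the 7 (-0.34 ± 0.13, adjusted p 0.0321, and 0.14 with library totals), its groups overlapped, and it lost its call without 0-day replicate 2, 3 or 4 or 30-day replicate 1 or 4 (adjusted p up to 0.111). In the membrane arm 13 of 16 genes had a negative change and 8 were called lower. Ndufa8, a subunit facing the intermembrane space, was at -0.61 ± 0.12 (adjusted p 0.000241).

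The subunits of a library tended to be high or low together. At 30 days replicate 1 was the lowest of the group in 30 of 33 subunits and replicate 3 the highest in 32. At 60 days replicate 1 was the lowest in 31 and replicate 2 the highest in 26. The 33 genes are not 33 independent readings of a group.

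At 60 days subunits were called in both directions. Their log2 fold changes had an SD of 0.27, beside 0.41 at 10 days. Of the 33, 3 were called lower than in unoperated muscle (all genes tested: 29.1%), 7 were called higher (29.9%) and 23 were not called, with a median of 0.027. With library totals the median was 0.44, 1 subunit was called lower and 23 were called higher. The 3 lower genes were all core subunits. Beside Ndufs1 they were Ndufs3 (-0.39 ± 0.13, adjusted p 0.0175) and Ndufs7 (-0.38 ± 0.15, adjusted p 0.0413), and with library totals the changes of this pair turned to 0.017 and 0.031, called in neither direction. Ndufs3 lost its call without 0-day replicate 3 or 60-day replicate 1 or 4 (adjusted p up to 0.0685). Ndufs7 lost it without any single 0-day library or 60-day replicate 1 or 4 (up to 0.125). The count of subunits called lower was 1 without 0-day replicate 3, 60-day replicate 1 or 60-day replicate 4. It was 7 without 30-day replicate 1 and 6 without 30-day replicate 3.

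The 7 subunits called higher at 60 days were accessory, 6 of them in the membrane arm. Ndufs4, a matrix arm subunit known for its part in late assembly and whose loss causes Leigh syndrome, led them. It was measured at 263, 254, 270 and 251 CPM at 0 days and at 186, 204, 180 and 203 CPM at 10 days. At 30 days it read 308, 351, 356 and 332 CPM and at 60 days 348, 398, 408 and 355 CPM. The groups of 0 days, 10 days and the later times did not overlap. Its change was -0.42 ± 0.07 at 10 days, 0.38 ± 0.07 at 30 days (adjusted p 0.000334) and 0.54 ± 0.07 at 60 days (adjusted p 1.43e-05), and with library totals the first of these was 0.23 and called higher.

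Ndufb7, a membrane arm subunit facing the intermembrane space, was next. Its libraries read 162, 156, 189 and 190 CPM at 0 days, 82.7, 76.2, 61.9 and 79.6 CPM at 10 days, 144, 195, 233 and 173 CPM at 30 days, and 194, 281, 267 and 235 CPM at 60 days. Each 60-day library exceeded each unoperated one, 60-day replicate 1 by little. The change at 60 days was 0.49 ± 0.14 (adjusted p 0.00792). Ndufa1, a small subunit needed for the membrane arm, was higher by 0.37 ± 0.11 (adjusted p 0.00856), with groups that overlapped. The others were Ndufb3 (0.36 ± 0.11), Ndufa11 (0.32 ± 0.11), Ndufs5 (0.31 ± 0.11) and Ndufb10 (0.29 ± 0.12).

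The last 4 of these calls depended on single libraries. Ndufb3 lost its call without 60-day replicate 3 (adjusted p 0.0514) and Ndufa11 without 60-day replicate 2 (0.0522). Ndufs5 lost it without 0-day replicate 2 or 60-day replicate 2 or 3 (up to 0.0743). Ndufb10, at an adjusted p of 0.0463, lost it in 11 of 16 such fits, which left out each 0-day library, 10-day replicate 2, 3 or 4, 30-day replicate 2 or 4, or 60-day replicate 2 or 3. The count of subunits called higher was 4 without 60-day replicate 2 or 3. Markers of fat cells were also higher at 60 days: the sum of 6 was 48.1 CPM ± 27.4 (SD, n = 4) at 0 days and 148 ± 59.7 at 60 days, and that of Schwann cell markers was 198 ± 65.9. The macrophage sum was 149 ± 50.3 and the fibroblast sum 1982 ± 687, both above every unoperated library. Of the 10 fibre markers 6 were called lower and 2 higher at 60 days, with changes from -2.47 (Myh4) to 0.63 (Myh2). Of 5 endothelial markers 1 was called lower and 1 higher. The part of these shifts in the 60-day values was not tested.

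**Figure D3:**
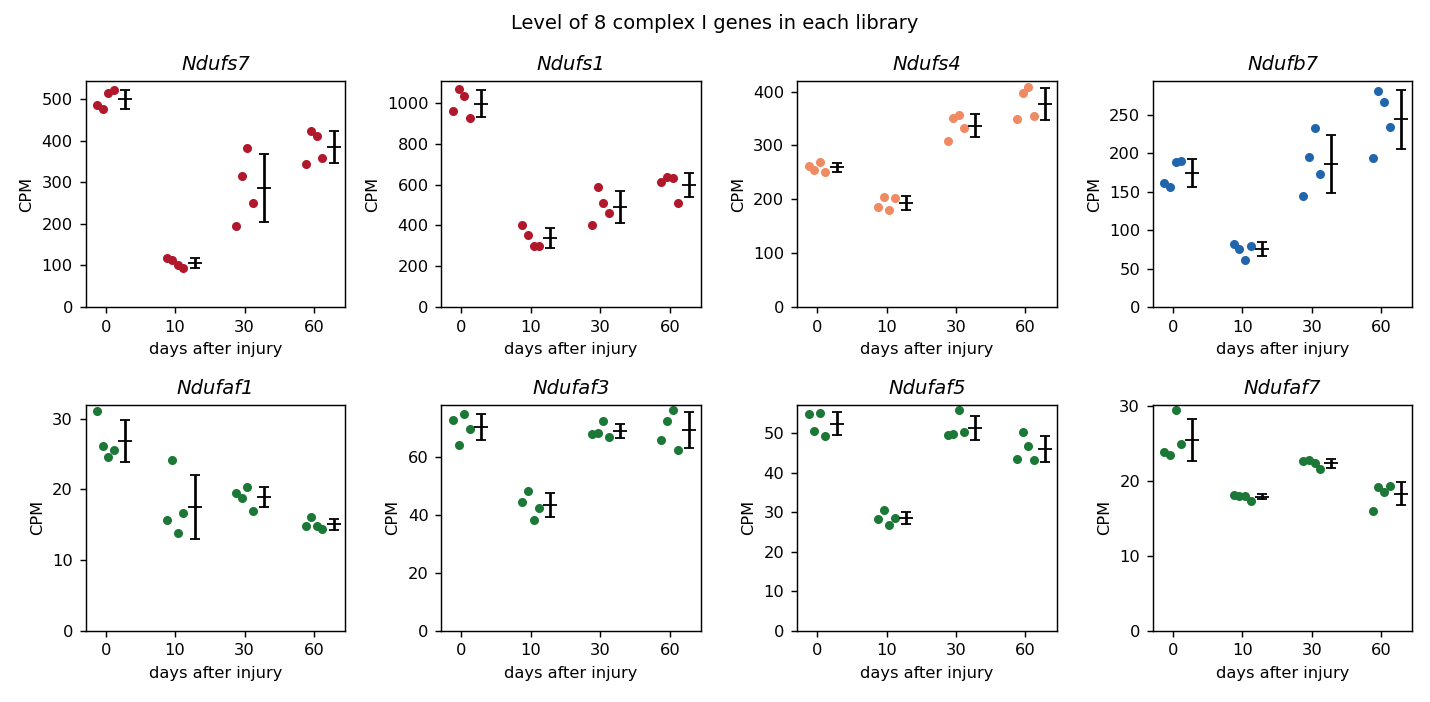
Points are CPM in each of the 4 libraries of a group and black bars are the mean ± SD, for 4 subunits (upper panels) and 4 assembly factors (lower panels), on linear axes from 0. Ndufs7 and Ndufs1 stay below the unoperated libraries at 60 days (log2 fold changes -0.38 and -0.74), Ndufs4 and Ndufb7 rise above them (0.54 and 0.49), and Ndufaf1 and Ndufaf7 are low at 60 days as at 10 days. With library totals the change of Ndufs7 at 60 days is 0.031.

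Between 10 days and the later times the subunits rose. At 30 against 10 days 33 of 33 were called higher (all genes tested: 23%), with a median of 1.03, and in 32 the groups did not overlap (upward separation in 21% of all genes tested), Ndufs1 being the exception. At 60 against 10 days 33 of 33 were called higher (29.1%), with a median of 1.31, from Ndufb4 (0.65 ± 0.10) to Ndufs7 (1.86 ± 0.16, adjusted p 8.63e-08), and no groups overlapped (upward separation in 23.7% of all genes tested). At 60 against 30 days 10 of 33 were called higher (10.3%), with a median of 0.30. In Ndufb11 (0.54 ± 0.10, adjusted p 0.00187) and Ndufb6 (0.37 ± 0.10, adjusted p 0.0128), both of the membrane arm, the groups did not overlap, a separation seen upward in 8.87% of all genes tested. The count of 10 was 4 without 30-day replicate 1 or 4 or 60-day replicate 2 or 3, 24 without 30-day replicate 3 and 25 without 60-day replicate 1. The comparisons share the 10-day or the 60-day libraries and are not separate evidence of a rise. Of the 10 fibre markers 9 were called higher at 30 against 10 days (median 1.18). At 60 against 10 days 8 were called higher and 1 lower (median 1.69). The part of these shifts in the rise of the subunits was not tested.

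The course of each subunit through the 3 comparisons with 0 days fell into 5 patterns. Most often, in 15 genes, a gene was lower at 10 and 30 days and without a call at 60 days. In 8 it was lower at 10 days alone. Another 6 were lower at 10 days and higher at 60 days with no call between. The core genes Ndufs1, Ndufs3 and Ndufs7 were lower at all 3 times, and Ndufs4 was lower and then higher.

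The 6 assembly factors had a smaller median change than the subunits at 10 days and a lower one at 60 days. At 10 days 5 of 6 were called lower (all but Ndufaf6; all genes tested: 29.4%), with a median of -0.56, and at 60 days 5 of 6 (all but Ndufaf3; all genes tested: 29.1%), with a median of -0.44. At 30 days Ndufaf1 was called lower (all genes tested: 30.9%) and the median was -0.20. With library totals these medians were 0.095 at 10 days, 0.29 at 30 days and -0.033 at 60 days, so that the direction at 10 and 30 days holds relative to the bulk of genes and not against library totals. Relative to the median of all genes tested, the factors' median was -0.62 at 10 days and -0.48 at 60 days. A change of library scaling shifts all genes by nearly the same amount. These differences are therefore nearly the same under TMM and library totals by construction.

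Ndufaf1, a scaffold of the complex that builds the membrane arm, had the lowest value at 60 days. It was measured at 31.1, 26.2, 24.5 and 25.6 CPM at 0 days, at 15.7, 24.1, 13.8 and 16.7 CPM at 10 days, at 19.6, 18.9, 20.3 and 16.9 CPM at 30 days and at 14.8, 16.2, 14.8 and 14.4 CPM at 60 days. All operated libraries lay below the unoperated ones, with 10-day replicate 2 close to them. The changes were -0.61 ± 0.13 (adjusted p 0.000808, 0.041 with library totals), -0.50 ± 0.13 (adjusted p 0.00356) and -0.84 ± 0.14 (adjusted p 7.87e-05). Against 10 days the level at 60 days differed by -0.22 ± 0.14 (adjusted p 0.167), with a 95% interval of -0.49 to 0.04.

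Ndufaf7 is a methyltransferase that acts in the early assembly of the matrix arm. Its libraries read 23.8, 23.5, 29.5 and 24.9 CPM at 0 days, 18.1, 18.0, 18.0 and 17.4 CPM at 10 days, 22.6, 22.8, 22.3 and 21.6 CPM at 30 days and 16.05, 19.2, 18.5 and 19.4 CPM at 60 days. The 10-day and 60-day libraries were low and the 30-day ones lay between. The changes were -0.51 ± 0.08 at 10 days (adjusted p 3.89e-05, 0.15 with library totals), -0.19 ± 0.08 at 30 days (adjusted p 0.0524) and -0.48 ± 0.08 at 60 days (adjusted p 0.000124). At 60 against 30 days it was called lower (-0.29 ± 0.08, adjusted p 0.0178), where 12.4% of all genes tested were.

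Ndufaf4, which works as a pair with Ndufaf3 on the ubiquinone module, read 59.9, 55.4, 53.9 and 52.8 CPM at 0 days and 32.99, 41.8, 39.8 and 44.2 CPM at 10 days. At 30 days it read 41.3, 52.6, 48.4 and 49.1 CPM and at 60 days 48.9, 41.1, 39.0 and 38.5 CPM. All 10-day and 60-day libraries were below the unoperated ones. The change was -0.48 ± 0.10 at 10 days (adjusted p 0.000457, 0.17 with library totals) and -0.41 ± 0.10 at 60 days (adjusted p 0.00243). Its partner Ndufaf3 parted from it: 72.9, 64.3, 74.9 and 69.8 CPM at 0 days, 44.7, 48.5, 38.3 and 42.6 CPM at 10 days, 68.0, 68.4, 72.5 and 67.0 CPM at 30 days, and 65.9, 72.7, 76.3 and 62.5 CPM at 60 days. Ndufaf3 was low at 10 days alone, by -0.69 ± 0.08 (adjusted p 1.22e-06), and its difference at 60 days was -0.023 with a 95% interval of -0.18 to 0.13 (adjusted p 0.817; 0.38 and called higher with library totals).

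Ndufaf5 hydroxylates an arginine of Ndufs7, the subunit with the largest fall. It read 54.9, 50.7, 55.2 and 49.2 CPM at 0 days, 28.3, 30.5, 26.8 and 28.6 CPM at 10 days, 49.6, 49.9, 55.8 and 50.3 CPM at 30 days and 43.4, 50.4, 46.9 and 43.3 CPM at 60 days. Its 10-day libraries stood alone and the other groups overlapped. The fall at 10 days was the largest of the factors (-0.88 ± 0.07, adjusted p 1.87e-08). At 60 days the change was -0.19 ± 0.07 (adjusted p 0.0276, 0.22 and called higher with library totals), and it lost its call without 0-day replicate 1, 2 or 3 or 60-day replicate 1 or 4 (up to 0.147). Ndufaf6, an early assembly factor, varied most between libraries, from 25.8 to 41.3 CPM at 0 days and from 17.6 to 28.6 CPM at 60 days. At 10 days it passed no threshold (-0.32 ± 0.22, adjusted p 0.227), and its call at 60 days (-0.63 ± 0.23, adjusted p 0.0249) was lost without 0-day replicate 1 or 2 or 60-day replicate 1, 3 or 4 (up to 0.100).

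From 10 days on, the 2 classes separated. At 30 against 10 days 4 of 6 factors were called higher (all genes tested: 23%), Ndufaf5 (0.85), Ndufaf3 (0.66), Ndufaf7 (0.32) and Ndufaf4 (0.27, lost without 10-day replicate 1 or 3 or 30-day replicate 2, 3 or 4, adjusted p up to 0.117), with a median of 0.30 against 1.03 for the subunits. At 60 against 10 days Ndufaf5 (0.69) and Ndufaf3 (0.67) were called higher (2 of 6; all genes tested: 29.1%), and the median was 0.056 against 1.31. At 60 against 30 days the medians were -0.19 and 0.30.

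Set against each other within a library, the classes gave a difference that does not rest on the choice of library scaling. The mean log2 CPM of the 33 subunits minus that of the 6 factors was 2.72, 2.84, 3.00 and 3.00 in the 0-day libraries and 2.41, 1.99, 2.13 and 2.24 in the 10-day libraries. It was 2.67, 2.82, 2.95 and 2.80 at 30 days and 3.12, 3.34, 3.44 and 3.35 at 60 days. The 10-day libraries were lowest and the 60-day ones highest, neither overlapping with another group, while the 30-day libraries overlapped with the unoperated ones. The means were 2.89 ± 0.14 (SD, n = 4), 2.19 ± 0.18, 2.81 ± 0.11 and 3.31 ± 0.14. The levels are not per length, so the size of the difference in 1 group carries no meaning and its change does. Stated as medians of log2 fold changes, subunits minus factors differed by -0.69 at 10 days, -0.12 at 30 days and 0.47 at 60 days against 0 days. No test is given for a score over genes chosen with these results known.

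**Figure D4:**
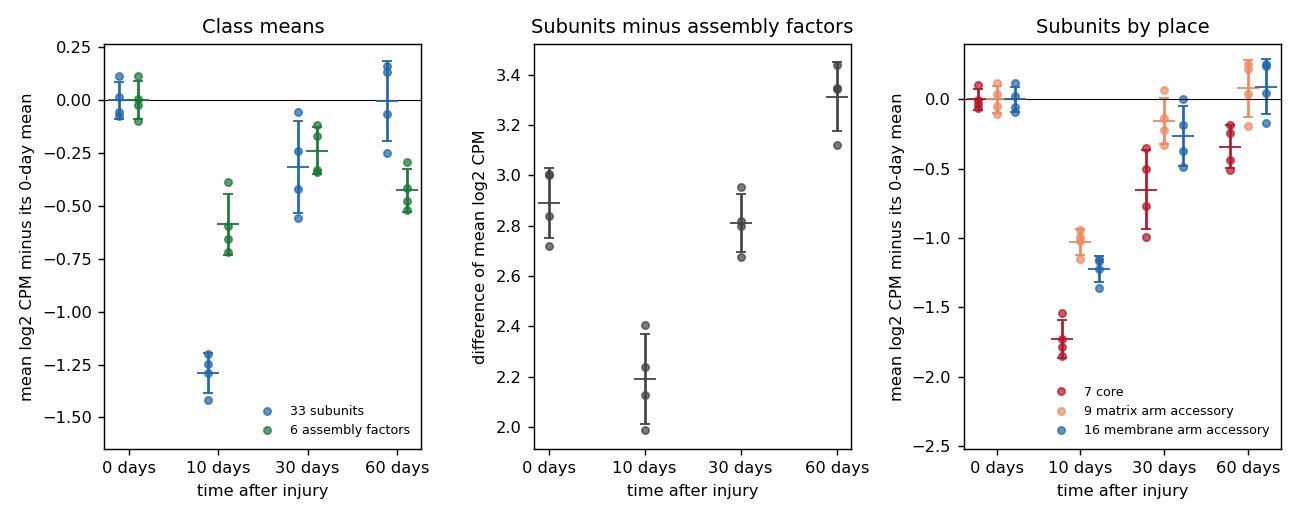
Points are libraries and bars the mean ± SD of 4. The left panel shows mean log2 CPM of the 33 subunits and 6 assembly factors, each minus its 0-day mean. The middle panel shows their difference within a library, which goes from 2.89 at 0 days to 2.19 at 10 days and 3.31 at 60 days. The right panel splits the subunits by place, with the 7 core genes lowest at each operated time under TMM scaling.

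Ndufa4, long listed with complex I and now placed in cytochrome c oxidase, had values within the range of the subunits: -0.95 ± 0.11 at 10 days (adjusted p 1.15e-06), -0.26 ± 0.11 at 30 days and 0.12 ± 0.11 at 60 days (adjusted p 0.353). Its 30-day call, at an adjusted p of 0.0468, was lost in 12 of 16 fits that left out a library (all 4 of 0 days, 10-day replicates 1 to 3, 30-day replicates 1, 2 and 4, 60-day replicates 3 and 4), and the change was 0.23 and called higher with library totals. Ndufa4l2, its hypoxia-induced relative, was scarce at 1.87 to 7.14 CPM. It fell by 1.13 ± 0.19 at 10 days (adjusted p 7.67e-05) and by 0.75 ± 0.19 at 30 days (adjusted p 0.00253), and differed by -0.40 ± 0.19 at 60 days (adjusted p 0.0815).

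Ndufa10l1 is uncertain, since it and Ndufa10 are the 2 Nduf genes with fractional values, as can arise where fragments match more than 1 gene. It read 242, 257, 251 and 223 CPM at 0 days, 116, 108, 103 and 105 CPM at 10 days, 79.5, 116, 85.5 and 120 CPM at 30 days and 133, 55.6, 55.9 and 63.0 CPM at 60 days. At 60 days replicate 1 stood far above the other 3. The changes were -1.17 ± 0.23, -1.28 ± 0.23 and -1.66 ± 0.23 (adjusted p 2.19e-05), while Ndufa10 was at 0.027 ± 0.13 at 60 days (adjusted p 0.872). With the fragments of both genes summed, the change at 60 days was -0.42 (adjusted p 0.00240), and how fragments were divided between the copies was not tested.

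Genes that act with the Nduf proteins were read from lists. Of 9 assembly factors of other names tested, 6 were called lower at 10 days (all genes tested: 29.4%), 5 at 30 days (30.9%) and 6 at 60 days (29.1%). Their medians at the 3 times were -0.18, -0.27 and -0.39, beside -0.56, -0.20 and -0.44 for the Ndufaf genes. Ecsit, a partner of Ndufaf1 in building the membrane arm, fell by 1.35 at 10 days, 0.74 at 30 days and 0.54 at 60 days (adjusted p 0.000408). Acad9 and Tmem126b, which belong to the same assembly complex, were at -0.50 (adjusted p 3.27e-05) and -0.47 at 60 days, after -0.30 and -0.33 at 30 days, where library totals gave 0.19 and 0.16. At 10 days Acad9 was at -0.18 and Tmem126b at -0.32, and with library totals both were called higher (0.48 and 0.34). The call of Acad9 at 10 days was lost in 11 of 16 fits that left out a library (adjusted p up to 0.143): 0-day replicates 1 to 3, 10-day replicates 1, 3 and 4, all of 30 days and 60-day replicate 3. Tmem70, known also for the assembly of ATP synthase, was at -1.13 at 10 days and was at -0.39 at 60 days (0.021 with library totals).

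Of 11 regulators of mitochondrial genes 4 were called lower and 3 higher at 10 days, 7 and 2 at 30 days, and 6 and 2 at 60 days. Among all genes tested 29.4% were called lower and 33.3% higher at 10 days, 30.9% and 33.7% at 30 days, and 29.1% and 29.9% at 60 days, so the counts at 10 days are near the share over all genes. Esrra, an estrogen-related receptor, was at -1.64 ± 0.13, -1.31 ± 0.13 and -0.90 ± 0.13 (adjusted p 2.63e-05) at the 3 times, and its coactivator Ppargc1a at -1.22 ± 0.17, -0.91 ± 0.17 and -0.74 ± 0.17 (adjusted p 0.00147). Both were still called lower at 60 days. The part of any regulator in the subunit changes was not tested. Nrf1 was at -0.60 ± 0.15, -0.77 ± 0.15 and -0.53 ± 0.15, and its first value was 0.056 with library totals. Yy1 was at 0.014 ± 0.12 at 10 days (adjusted p 0.929) and at -0.63 ± 0.12 and -0.61 ± 0.12 at 30 and 60 days. The 3 called higher at 10 days were Gabpa, Sp1 (0.38 ± 0.10) and Pprc1 (0.37 ± 0.12). Gabpa, the DNA-binding subunit of GABP, read 38.7, 35.5, 40.3 and 43.7 CPM at 0 days and 63.7, 71.8, 63.9 and 74.4 CPM at 10 days, with no overlap. Its changes were 0.79 ± 0.09 (adjusted p 1.75e-06), 0.25 ± 0.09 (adjusted p 0.0310, lost without 0-day replicate 1 or 2 or 30-day replicate 1, 2 or 4, up to 0.0892) and 0.062 ± 0.09 (adjusted p 0.588) at the 3 times. With library totals they were 1.45, 0.74 and 0.47, all called higher. Of the 11 regulators, Esrrg had the lowest change against 0 days at 30 days (-1.44) and at 60 days (-0.96). It read 17.5, 7.46, 7.13 and 6.49 CPM at 60 days, beside 21.9, 19.6, 16.6 and 17.1 CPM at 0 days. Its 60-day replicate 1 thus lay within the unoperated range. Ppargc1b had the largest rise of the 11 at 60 against 10 days (0.89) and at 60 against 30 days (0.77).

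The rest of the respiratory chain gave the background for the subunits. Of 39 genes of complexes II to V tested, 38 were called lower at 10 days (all genes tested: 29.4%). Their median was -1.36, beside -1.25 for the complex I subunits. At 30 days 19 were called lower and 2 higher (all genes tested: 30.9% and 33.7%), with a median of -0.29, beside -0.32. At 60 days 6 were called lower and 4 higher (all genes tested: 29.1% and 29.9%), with a median of 0.019, beside 0.027. All 39 were called higher at 30 and at 60 against 10 days (all genes tested: 23% and 29.1%). Their medians were 1.02 and 1.37, beside 1.03 and 1.31 for the complex I subunits. The difference between complex I and the other complexes was not tested. The subunits encoded in mitochondrial DNA were not analysed here.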

How the data were processed

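The authors deposited 1 table of expected counts, raw fragments per gene and library from Cuffdiff 2.1.1, after alignment with TopHat2 2.0.9 and Bowtie2 2.1.0.0 to rn5, per the submitters' processing notes. The annotation and strandedness are not given in the sources used here. Groups were taken from the time in each label. Values were rounded to whole counts and filtered with filterByExpr. TMM factors averaged 0.763, 1.20, 1.08 and 1.01 at 0, 10, 30 and 60 days. One edgeR quasi-likelihood model with robust estimation held all 16 libraries, and p-values were adjusted by Benjamini-Hochberg over 11658 genes. An SE is the log2 fold change divided by the square root of F. Class scores are mean log2 CPM with a prior count of 2.

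All Nduf genes could be named; 1 core subunit counts in the class values and is not reported here by itself. Described in detail were the core subunits, the Ndufaf genes, Ndufa4, Ndufa4l2, the extreme accessory subunits of each arm and those called against their class. The members and lists were chosen with earlier results of these data known. Complexes II to V, regulators, markers and other assembly factors are fixed lists. Esrra, Ppargc1a, Nrf1, Yy1 and the other regulators named were singled out after their values were seen.

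Alternatives were RLE and upper-quartile factors, library totals, DESeq2, limma-voom, no filter, a mean of at least 1 CPM, fits of the 2 compared groups, the replicate block, the title letter and leaving out each library. Summing Ndufa10 with Ndufa10l1 was added after seeing the data. On simulated data for 10 against 0 days, 156 of 200 genes changed 2-fold were called, and 6 unchanged ones, of 11515 tested. The simulation changed only these 200 of 11658 genes, while in the data 33.3% were called higher and 29.4% lower. Its rates therefore need not hold for these data. Precision is limited by 4 libraries a group, and the libraries of a group differed beyond counting error (chi-square per gene from 13.2 to 108 over 24 pairs). The fits used edgeR 4.0.16, DESeq2 1.42.0 and limma 3.58.1 in R 4.3.3, and figures matplotlib 3.10.9 under python 3.11.15.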

Additional observations from a re-analysis of the deposited data

Results flagged for a closer look

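In 4 of 116 groups of 4 libraries, 1 library stood apart from the others by Dixon's criterion, which chance alone meets in about 1 in 20 groups. The 116 are the 4 groups of each of 26 Nduf genes and of 3 class scores (the mean of the subunits, that of the assembly factors and their difference). They were Ndufa1 at 10 days (replicate 4 at 109 CPM), Ndufa10l1 at 60 days (replicate 1 at 133 CPM), Ndufaf5 at 30 days (replicate 3 at 55.8 CPM) and Ndufs3 at 0 days (replicate 3 at 546 CPM). The subunits called lower than unoperated muscle at 10 days and higher at a later time were also listed, if called between those times. The same libraries chose them, so the differences below are not separate evidence. All 33 subunits were called higher at 60 against 10 days. At 60 against 10 days the log2 differences were 1.70 for Ndufb7, 1.57 for Ndufa11, 1.49 for Ndufb10, 1.35 for Ndufb3, 1.12 for Ndufs5, 1.04 for Ndufa1 and 0.97 for Ndufs4, the last of which also differed at 30 against 10 days by 0.80. With library totals the 10-day value of Ndufs4 was not lower but higher than in unoperated muscle (0.23). The adjusted p of these differences in edgeR's quasi-likelihood test ran from 2.12e-08 (Ndufa11) to 6.87e-07 (Ndufs4, 30 against 10 days).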

How the results depend on the processing

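All 33 subunits stayed called higher at 30 and at 60 against 10 days under the 27 alternatives, and the difference of medians between subunits and assembly factors kept its sign in all 6 comparisons. A change of library scaling hardly moves that difference, since it shifts both classes nearly alike. At 10 against 0 days 33 were called lower in each of the 16 fits that left out a library and at least 27 in the other 11. Leaving out a library gave 13 to 23 subunits called lower at 30 days, 1 to 7 lower and 4 to 9 higher at 60 days, and 4 to 25 higher at 60 against 30 days. With library totals 1 subunit was called higher at 10 days, 2 lower and 13 higher at 30 days, and 1 lower and 23 higher at 60 days. Upper-quartile factors gave 1 lower at 60 days and fits of the 2 compared groups 7. At 60 against 30 days, 17 were higher with RLE factors, 21 with DESeq2 and 2 in fits of the 2 compared groups; the cause was not tested. Of 167 called tests of Nduf genes, 166 stayed called with the replicate block, 167 with DESeq2 and 128 with library totals, under which 17 changed sign. No pairing is stated, libraries that share a column suffix did not deviate together (mean correlation 0.0013, from -0.24 to 0.22 over 24 pairs), and the block lost 1 call and added 6. Signs changed with library totals as follows, on the log2 scale. At 10 days the factors' median was 0.095, Ndufaf1 0.041, Ndufaf4 0.17, Ndufaf7 0.15, Ndufs4 0.23, Acad9 0.48, Tmem126b 0.34, Timmdc1 0.48, Tmem186 0.51, Nubpl 0.55, Aifm1 0.035 and Nrf1 0.056. At 30 days the subunit median was 0.17, the factors' median 0.29, Ndufa1 0.47, Ndufa11 0.41, Ndufa4 0.23, Ndufaf3 0.46, Ndufaf4 0.28, Ndufaf5 0.46, Ndufaf7 0.31, Ndufb10 0.34, Ndufv1 0.14, Acad9 0.19, Tmem126b 0.16, Timmdc1 0.22, Tmem186 0.49, Nubpl 0.42 and Tmem70 0.20. At 60 days Ndufaf3 was 0.38, Ndufaf5 0.22, Ndufs3 0.017, Ndufs7 0.031, Timmdc1 0.12, Nubpl 0.28 and Tmem70 0.021. Summed with its copy, Ndufa10 was -0.42 at 60 days. Timmdc1 lost its call at 10 days without 0-day replicate 3 or 4 or 10-day replicate 1 or 3 (adjusted p up to 0.0743).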
